A study of Rattus norvegicus with 48 samples.

Results

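Mki67, Cdk1, Pcna, Ccnd1 and Cdkn1a, 5 genes that mark or steer the cell cycle, were followed in rat liver. They were picked by their Ensembl identifiers (ENSRNOG00000028137, ENSRNOG00000000632, ENSRNOG00000021264, ENSRNOG00000020918 and ENSRNOG00000000521, in that order) and make up 5 of the 32662 genes in the tables. All 5 passed the filter on low counts, as did 12756 genes in all, which asked for 1 CPM (a read count scaled to a common total of reads on genes) or more in 5 or more animals of any group. Liver RNA of 48 Wistar rats (males of the stock RjHan:WI, 200 to 250 g and aged 6 weeks when obtained, with no genetic change named in the labels) was sequenced. Of these, 24 received CDAA, an amino acid-defined diet deficient in choline and with 1% cholesterol ("CDDA Cholesterol 1pc" in the labels), and 24 received CSAA, the control diet with choline, for 4, 8 or 12 weeks with 8 animals in each of the 6 groups. By share of energy CDAA was also higher in fat, lower in carbohydrate and slightly lower in protein than CSAA. The parts of choline, cholesterol and these nutrients thus cannot be told apart. Rats were housed in pairs, and the labels do not say which animals shared a cage. The question behind the design was how the liver changes over time in this dietary model of steatohepatitis, with controls of the same age at each week.

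A resting liver holds few dividing cells, but its hepatocytes can re-enter the cell cycle after injury or loss of tissue. Cyclin D1 (Ccnd1) binds and activates the kinases that carry a cell through G1, PCNA is the sliding clamp of DNA polymerase in S phase and also serves in DNA repair, CDK1 is the kinase that drives entry into mitosis, and Ki-67 (Mki67) coats mitotic chromosomes and is present in cycling but not in resting cells. The protein p21 (Cdkn1a) inhibits cyclin-dependent kinases, binds PCNA and is a classic target of p53 after DNA damage, so cyclin D1 and p21 act on these kinases in opposite directions.

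The bases before the gene start are shown for Mki67 and Cdk1, whose levels moved together between animals, and for Cdkn1a, the kinase inhibitor among the 5 genes. They are RefSeq sequences of the build GRCr8, while the authors aligned the reads to Rnor_6.0. A window was found for 4 of the 5 genes, and not for Ccnd1. Each window runs 5′ to 3′ over 250 bases and ends at the base before the start. The Mki67 window is chr1:199952594-199952843 on the minus strand, that of Cdk1 is chr20:19265043-19265292 on the plus strand and that of Cdkn1a is chr20:7150682-7150931 on the plus strand. Capitals mark the motifs searched on both strands. These were the CCAAT box (CCAAT), the cell cycle genes homology region or CHR element (TTTGAA or TTCGAA), 4 forms of the E2F site (TTTCCCGC, TTTGGCGC, TTTCGCGC and TTTGCCGC), the TATA box (TATAAA) and the p53 half-site, for which 1 match to the consensus was enough.
Mki67: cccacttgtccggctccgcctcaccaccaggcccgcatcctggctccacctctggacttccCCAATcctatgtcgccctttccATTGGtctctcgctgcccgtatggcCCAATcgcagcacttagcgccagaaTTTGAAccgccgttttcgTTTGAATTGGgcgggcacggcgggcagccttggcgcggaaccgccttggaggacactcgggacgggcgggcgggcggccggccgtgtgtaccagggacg
Cdk1: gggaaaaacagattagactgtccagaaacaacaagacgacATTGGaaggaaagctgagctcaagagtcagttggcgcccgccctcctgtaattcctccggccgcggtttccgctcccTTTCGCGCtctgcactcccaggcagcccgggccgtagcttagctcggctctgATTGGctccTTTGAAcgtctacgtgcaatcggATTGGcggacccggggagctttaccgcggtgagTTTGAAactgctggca
Cdkn1a: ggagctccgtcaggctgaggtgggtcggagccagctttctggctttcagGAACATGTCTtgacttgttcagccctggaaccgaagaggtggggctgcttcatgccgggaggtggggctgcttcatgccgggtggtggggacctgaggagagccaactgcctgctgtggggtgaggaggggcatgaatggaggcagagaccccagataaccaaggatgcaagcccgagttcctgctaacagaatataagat

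The windows of Mki67 and Cdk1 both held CCAAT boxes and CHR elements, a pair known from promoters of genes of G2 and mitosis. Mki67 had 4 CCAAT boxes, the nearest at 94 to 90 bases before the start, and 2 CHR elements. One of its CHR elements shares a base with that nearest box. Cdk1 had 3 CCAAT boxes, 2 CHR elements, of which the nearest lay 16 to 11 bases before the start, and 1 E2F site. Of all 33469 windows of this length, 34% held a CCAAT box, 17.4% a CHR element, 6.31% both, and 1.73% an E2F site. The window of Pcna (chr3:139955821-139956070, minus strand) held 1 CCAAT box and no CHR element. The Cdkn1a window held neither, but 1 match to the p53 half-site, which was found in 6.64% of all windows. A TATA box was in none of the 4 windows and in 12.9% of all windows. A match of letters is a description of the window, and binding was not measured.

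The reads on genes numbered 13619274 to 22284359 per animal, so counting error was small for Pcna, Ccnd1 and Cdkn1a but not for the control levels of Mki67 and Cdk1. The fewest reads in any animal were 22 for Mki67 and 8 for Cdk1, against 238 for Pcna, 754 for Ccnd1 and 67 for Cdkn1a. Levels below are TMM CPM, which is CPM scaled by TMM (the trimmed mean of M values, a correction for library composition), unless RPKM (CPM divided by gene length in kilobases) is named. The mean TMM factor was 0.808, 0.848 and 0.777 in CSAA and 1.07, 1.29 and 1.37 in CDAA at weeks 4, 8 and 12, so the choice of scaling shifts all genes between the diets. With library size alone, the median log2 FC of the 12756 genes was 0.39, 0.65 and 0.73 at the 3 weeks, and with TMM -0.02, 0.05 and -0.09. In a piece of liver, fewer cells of a type and less RNA per cell cannot be told apart, and which cells carried these transcripts was not measured. Gene names other than those of the 5 genes were not used here, so the tissue was not checked against marker genes. The CSAA animals 504 (week 8) and 908 (week 12) and the CDAA animals 303 (week 4) and 1102 (week 12) stood apart from their groups in earlier results of these data, and a diet effect is given without them where its fold moved by over 1.5 times.

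On CDAA 4 of the 5 genes were upregulated at week 4, and 3 of the 5 at weeks 8 and 12, by the thresholds of the study (adjusted p under 0.01 and an absolute log2 FC of at least 1). Mki67 and Cdk1 were 4.43- to 5.87-fold higher at every week, Ccnd1 passed at weeks 4 and 8, Cdkn1a passed the thresholds at weeks 4 and 12, and Pcna passed the adjusted p alone at weeks 4 and 8. By the same thresholds 15.7%, 18.1% and 19.4% of all genes tested were upregulated at weeks 4, 8 and 12, and 4.27%, 12.1% and 11.3% were downregulated. Of the calls, 78.6%, 59.9% and 63.2% were thus upward with TMM, but 92.3%, 88.7% and 94.0% with library size alone. None of the 5 genes was downregulated at any week. The median log2 FC of the 5 genes was 1.42, 1.13 and 1.18 at the 3 weeks. All 5 adjusted p values were under 0.01 at weeks 4 and 8 and 4 of the 5 at week 12, each with CDAA higher, which held for 27.5%, 34.8% and 31.3% of all genes. The tests are edgeR's quasi-likelihood tests with Benjamini-Hochberg adjustment over all 12756 genes, and each log2 FC is given with its SE.

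**Figure D1:**
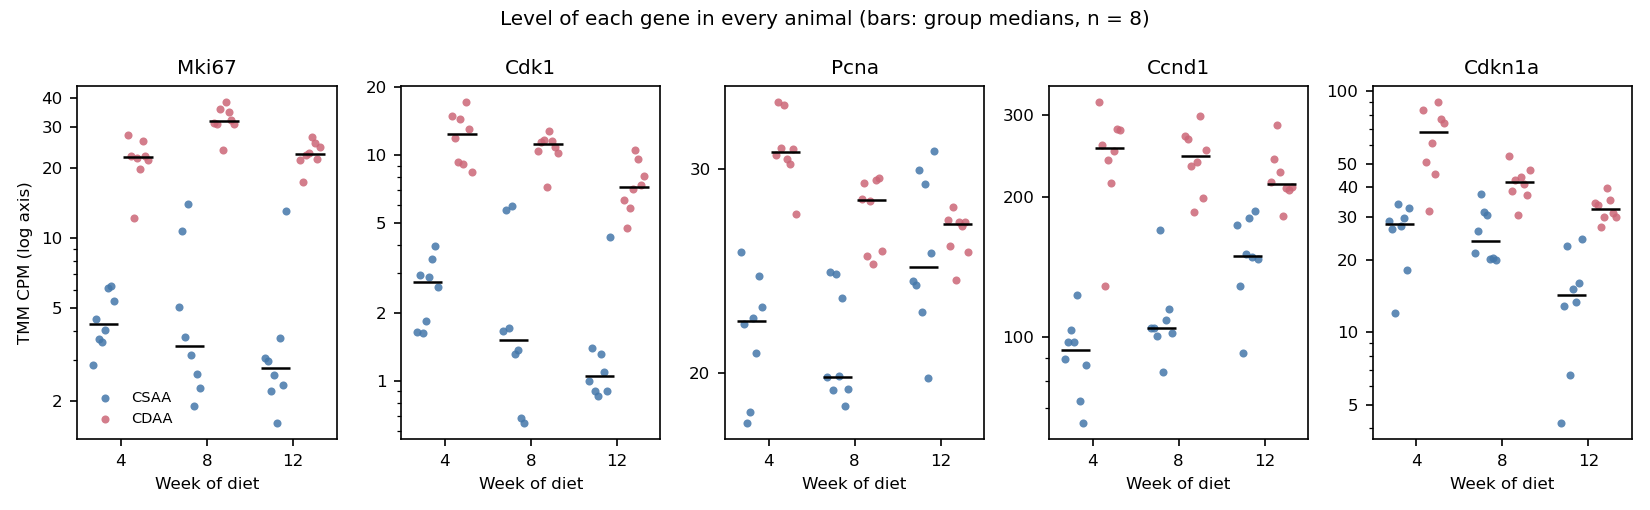
TMM CPM (log axis) of each gene in every animal by week of diet, with CSAA in blue and CDAA in red, 8 animals per group and bars at the group medians. All CDAA animals lie above all CSAA animals for Mki67 and Cdk1 at each week, while the Pcna values of the diets overlap at week 12.

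Mki67 marks cycling cells and was the lowest of the 5 genes per gene length. At week 4 its level ranged from 2.86 to 6.21 TMM CPM in CSAA (median 4.26) and from 12.2 to 27.9 in CDAA (median 22.3). At week 8 it ranged from 1.90 to 14 in CSAA (median 3.45) and from 23.9 to 38.6 in CDAA (median 31.9). At week 12 it ranged from 1.60 to 13.1 in CSAA (median 2.77) and from 17.4 to 27.4 in CDAA (median 23.1). Every CDAA animal lay above every CSAA animal of its week, but a few control livers reached well above the others. The log2 FC was 2.28 ± 0.31 at week 4 (adjusted p = 1.85e-08), which is 4.87-fold. At week 8 it was 2.55 ± 0.30 (adjusted p = 3.78e-10), or 5.87-fold, and at week 12 it was 2.54 ± 0.31 (adjusted p = 6.05e-10), or 5.83-fold. These 3 values lay within 1 SE of each other with all 48 animals. Without the 4 animals that stood apart they were 2.39, 2.96 and 3.25 for Mki67, larger at each later week, with the test of the difference given under the interactions. A lack of overlap with CDAA higher was found for 8.71%, 20% and 19.8% of all genes at weeks 4, 8 and 12.

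The control livers with much Mki67 were animals 502 and 504 at week 8 and animal 908 at week 12. Their levels were 10.7, 14 and 13.1 TMM CPM. The same 3 animals had the highest Cdk1 levels of their groups, with 5.71, 5.96 and 4.34 TMM CPM. They set the highest control values of both genes and lower the fold changes of their weeks. Without animals 502 and 504 (left out after their values had been seen), the log2 FC at week 8 was 3.41 for Mki67 and 3.16 for Cdk1. Without the 4 animals that stood apart, the log2 FC at week 12 was 3.25 for Mki67 and 2.96 for Cdk1. All of these effects stayed past both thresholds. That was no test of them, because leaving out the highest controls raises an upward fold change. Animal 1102, also left out at week 12, was the lowest CDAA animal of that week in both genes. The CDAA animal 303 had the lowest Mki67 level of its group (12.2 TMM CPM), and animal 1102 that of CDAA at week 12 (17.4).

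Cdk1, the mitotic kinase, showed the same separation of the diets. At week 4 its level was 1.62 to 3.97 TMM CPM in CSAA (median 2.74) and 8.43 to 17.2 in CDAA (median 12.5). The week 8 level was 0.651 to 5.96 in CSAA (median 1.51) and 7.22 to 12.8 in CDAA (median 11.2). The week 12 level was 0.861 to 4.34 in CSAA (median 1.05) and 4.78 to 10.5 in CDAA (median 7.23). The diets did not overlap at any week, and the medians of both diets were lower at each later week. The log2 FC was 2.25 ± 0.31 at week 4 (adjusted p = 2.71e-08), 2.15 ± 0.31 at week 8 (adjusted p = 3.39e-08) and 2.33 ± 0.32 at week 12 (adjusted p = 1.56e-08). In CDAA the log2 FC of Cdk1 between week 12 and week 4 was -0.72 ± 0.28, which missed the threshold (adjusted p = 0.0221). That depended on the method, as limma-voom gave -0.73 ± 0.17 (adjusted p = 3.1e-04). With library size alone the value was -0.38 ± 0.31 (adjusted p = 0.282). In CSAA the log2 FC of Cdk1 between these weeks was -0.81 ± 0.35 in edgeR's test (adjusted p = 0.0592). Without control animal 908, the highest of its group, it was -1.28 ± 0.34 (adjusted p = 0.00212).

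Pcna, the replication clamp, changed far less. At week 4 it ranged from 18.1 to 25.4 TMM CPM in CSAA (median 22.2) and from 27.4 to 34.3 in CDAA (median 31.0). The week 8 levels ranged from 18.7 to 24.4 in CSAA (median 19.8) and from 24.8 to 29.5 in CDAA (median 28.2). Those of week 12 ranged from 19.8 to 31.1 in CSAA (median 24.7) and from 24 to 27.8 in CDAA (median 26.9). The diets were apart at weeks 4 and 8 and lay on top of each other at week 12 on the TMM scale, where no CDAA animal exceeded the highest control. On the RPKM scale all 8 CDAA animals exceeded every control at week 12, as was found for 54.5% of all genes. The log2 FC was 0.52 ± 0.08 at week 4 (adjusted p = 1.01e-07) and 0.38 ± 0.08 at week 8 (adjusted p = 2.16e-05), both below the fold change threshold. At week 12 the log2 FC of Pcna was 0.04 ± 0.08 (adjusted p = 0.667), with an interval of 2 SE from -0.11 to 0.19. This value depends on the scaling. With library size alone it was 0.86, with RPKM values also 0.86 and with the trend on gene length removed 0.28, each with an adjusted p under 0.01. The distance of Pcna to the median of all genes was 0.12 with TMM, 0.12 with library size alone and 0.14 with RPKM, so Pcna moved with the shift of all genes between these scalings. With the trend on gene length removed this distance of Pcna was larger, at 0.32.

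Ccnd1, the G1 cyclin, had the highest level of the 5 genes per gene length in every group. At week 4 it ranged from 65.1 to 123 TMM CPM in CSAA (median 93.4) and from 128 to 320.4 in CDAA (median 255). After 8 weeks it ranged from 83.8 to 169 in CSAA (median 104) and from 185 to 299 in CDAA (median 245). After 12 weeks it ranged from 92.2 to 186 in CSAA (median 149) and from 182 to 285 in CDAA (median 213). The diets did not overlap at weeks 4 and 8, whereas at week 12 the CDAA animals exceeded every control in 7 of 8 cases, and in 8 of 8 on the RPKM scale. The log2 FC was smaller at each later week, with 1.42 ± 0.14 at week 4 (adjusted p = 2.92e-11), 1.13 ± 0.14 at week 8 (adjusted p = 1.71e-09) and 0.56 ± 0.14 at week 12 (adjusted p = 4.28e-04). The value at week 8 fell below the fold change threshold with the trend on gene length removed (0.79), and that at week 12 passed it with library size alone (1.37). Ccnd1 was lowest in CDAA at week 4 in animal 303 (128 TMM CPM), and in CSAA at week 8 it was highest in animal 504 (169).

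Cdkn1a encodes the inhibitor p21, and its diet effect passed the adjusted p at each week with all 48 animals. At week 4 it ranged from 12.0 to 34.2 TMM CPM in CSAA (median 28.2) and from 31.9 to 90.1 in CDAA (median 67.6). By week 8 the range was 20 to 37.6 in CSAA (median 23.8) and 30.5 to 53.6 in CDAA (median 42.0). By week 12 the level ranged from 4.20 to 24.3 in CSAA (median 14.2) and from 27.2 to 39.7 in CDAA (median 32.5). The diets overlapped at weeks 4 and 8, where 7 and 6 of the 8 CDAA animals exceeded every control, and did not overlap at week 12, where both diets were at their lowest. On the RPKM scale the diets did not overlap at week 8 either, as for 45.6% of all genes with CDAA higher. The log2 FC was 1.29 ± 0.22 at week 4 (adjusted p = 1.95e-06), 0.68 ± 0.22 at week 8 (adjusted p = 0.0046) and 1.18 ± 0.22 at week 12 (adjusted p = 6.98e-06). At week 8 it lay below the fold change threshold, which it passed with library size alone (1.28) and with the RPKM table (1.31). Its adjusted p at week 8 rose above 0.01, to at most 0.0116, when animal 501, 506, 507, 508 or 701 was left out.

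**Figure D2:**
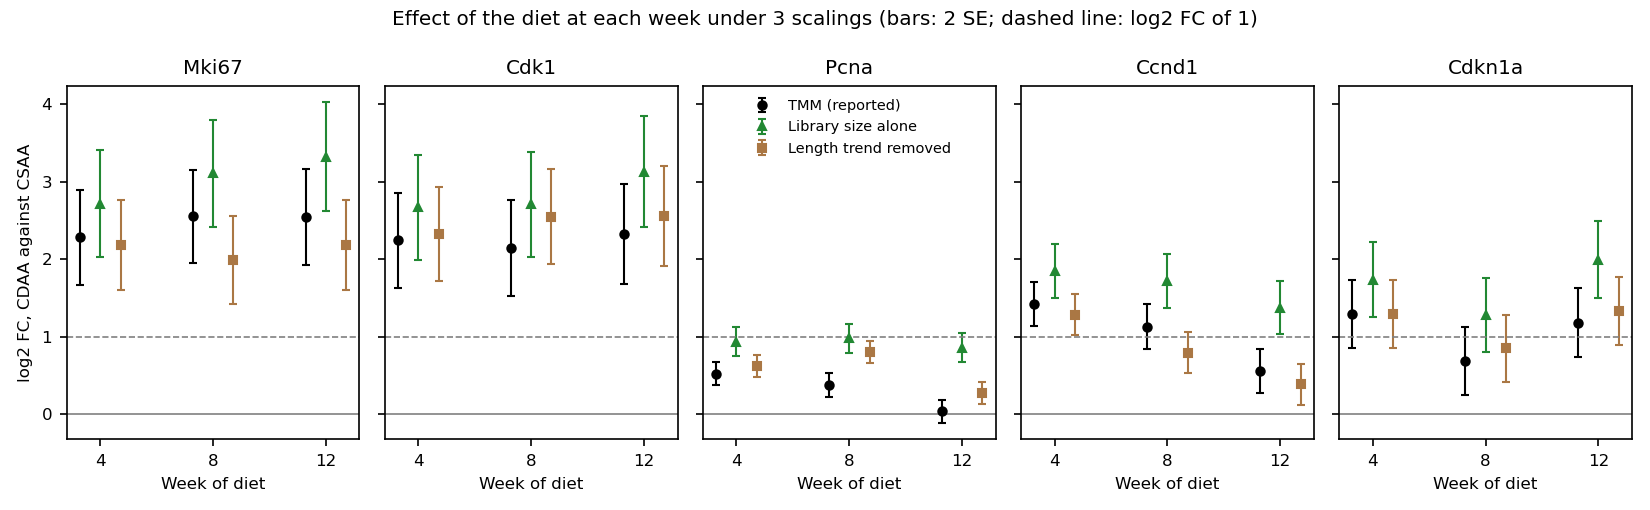
Log2 FC of CDAA against CSAA (vertical axis) at weeks 4, 8 and 12 for each gene, with TMM (black circles), library size alone (green triangles) and the trend on gene length removed (brown squares), and bars of 2 SE. Mki67 and Cdk1 lie near or above 2 at each week and scaling, while Pcna at week 12 is 0.04, 0.86 or 0.28 by the scaling.

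Levels of different genes were compared on the RPKM scale, which accounts for gene length. In CSAA at week 4 the median was 19.5 RPKM for Ccnd1, 15 for Pcna, 14.1 for Cdkn1a, 1.79 for Cdk1 and 0.344 for Mki67. In CDAA at week 4 it was 75.9 for Ccnd1, 43.2 for Cdkn1a, 29.8 for Pcna, 11.8 for Cdk1 and 2.46 for Mki67. Ccnd1, Pcna and Cdkn1a thus lay above the 2 mitotic genes in both diets. The gene lengths implied by the ratio of counts to RPKM were 9.91 kb for Mki67, 3.81 kb for Ccnd1, 1.67 kb for Cdkn1a, 1.19 kb for Cdk1 and 1.16 kb for Pcna. Removing a trend on length moved the longest and the shorter genes in opposite directions at week 8, Mki67 from 2.55 to 1.99 and Cdk1 from 2.15 to 2.55 (log2 FC), with both still called.

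Whether the effect of the diet differed between weeks was tested as a diet by week interaction. None of the 5 genes passed both thresholds in any of the 3 interactions. Between weeks 4 and 8, 1.22% of all genes had a larger and 3.03% a smaller effect at week 8 by both thresholds. The smallest adjusted p of the 5 genes was 0.127 there. Between weeks 8 and 12 these shares were 2.92% and 1.09%. The smallest adjusted p values of the 5 genes were then those of Pcna (log2 difference -0.34, adjusted p = 0.0117) and Ccnd1 (-0.57, adjusted p = 0.0233). Between weeks 4 and 12 the shares by both thresholds were 2.25% and 2.79%. Here the effect on Ccnd1 was smaller at week 12 than at week 4 by a log2 difference of -0.86 ± 0.20 (adjusted p = 6.88e-04), and that on Pcna by -0.49 ± 0.11 (adjusted p = 4.24e-04). An adjusted p under 0.01 with a smaller effect at week 12 was found in 16.7% of all genes, with a median difference of -0.10 over all genes. With library size alone the difference was -0.48 (adjusted p = 0.104) for Ccnd1 and -0.08 (adjusted p = 0.659) for Pcna, so neither adjusted p stayed under 0.01 with that scaling. The distance to the median of all genes was -0.77 with TMM and -0.79 with library size alone for Ccnd1, and -0.39 with either for Pcna. For Mki67, Cdk1 and Cdkn1a the differences between weeks 4 and 12 were 0.26 ± 0.43, 0.08 ± 0.43 and -0.11 ± 0.31, all within their errors. The value of Mki67 moved with control animal 908 and with the scaling (0.61 with library size alone, adjusted p = 0.31, and 0.80 with RPKM, adjusted p = 0.086). Without animal 908 it was 0.84 ± 0.36 (adjusted p = 0.0651), and without the 4 animals that stood apart 0.87 ± 0.30 (adjusted p = 0.0211), a larger effect at week 12 that missed the threshold of 0.01. Each of these exclusions takes out the highest control of week 12 in Mki67 and Cdk1, which raises the effect at that week. For Cdk1 the values were 0.55 ± 0.42 and 0.64 ± 0.38, neither past the threshold (adjusted p = 0.306 and 0.187).

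The weeks were also compared within each diet, with the controls as the reference for age. No gene of the 5 passed both thresholds in any of these 6 comparisons, in which the shares of all genes passing both thresholds were 7.43% (higher) and 3.13% (lower) for CDAA between weeks 4 and 12, and 1.34% in either direction for CSAA. In CSAA, Ccnd1 was higher at week 12 than at week 4 by a log2 FC of 0.71 ± 0.14 (adjusted p = 6.51e-05), and in CDAA it differed by -0.15 ± 0.14 (adjusted p = 0.362). In CDAA, Pcna was lower at week 12 by a log2 FC of -0.25 ± 0.08 (adjusted p = 0.00454), and in CSAA it differed by 0.24 ± 0.08, which missed the threshold (adjusted p = 0.0103). Cdkn1a was lower at week 12 than at week 4 in both diets, by -0.97 ± 0.22 in CDAA (adjusted p = 1.45e-04) and by -0.86 ± 0.22 in CSAA (adjusted p = 0.00181). Both decreases lay just under the fold change threshold of 1, and that in CDAA passed it when animal 302, 303, 305 or 1105 was left out. The decrease of Cdkn1a in CDAA lost its adjusted p under 0.01 with library size alone (-0.65, adjusted p = 0.0153) and with log2(RPKM + 0.1) (-0.56, adjusted p = 0.0568), whereas that in CSAA kept it in every alternative run. With library size alone, Pcna in CDAA differed by 0.11 between weeks 12 and 4 (adjusted p = 0.315), with the sign turned. With DESeq2 its decrease missed the threshold (-0.19, adjusted p = 0.0181), as it did without the 4 animals that stood apart (-0.18, adjusted p = 0.0378). An adjusted p under 0.01 was found in 28.6% (lower) and 20.6% (higher) of all genes for CDAA and in 12.2% and 15.8% for CSAA in this comparison.

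From week 4 to week 8 no gene of the 5 was called in CSAA by edgeR's test, with a smallest adjusted p of 0.283. Of all genes, 0.0314% were called higher and 0.0157% lower there. From week 8 to week 12, where 0.713% of all genes were called higher and 2.07% lower in CSAA, Cdkn1a fell by 0.85 ± 0.22 on the log2 scale (adjusted p = 0.00182). Ccnd1 rose by 0.44 ± 0.14 (adjusted p = 0.00981) and Pcna by 0.28 ± 0.08 (adjusted p = 0.00247) over these weeks. These changes passed the adjusted p alone, and the share of all genes that did so is not given for these weeks. Between weeks 4 and 12 of CSAA that share was 12.2% (lower) and 15.8% (higher). In CDAA the smallest adjusted p of the 5 genes was 0.0145 from week 4 to week 8, with 3 of 5 at an unadjusted p under 0.05, and 0.277 from week 8 to week 12, with 0 of 5. The shares of all genes called were 3.17% (higher) and 1.84% (lower) between the first 2 weeks and 1.33% and 0.102% between the last 2. In order of its median, Mki67 was highest in CDAA at week 8, followed by weeks 12 and 4, with the neighbours not differing by test (adjusted p = 0.328 and 0.823). For the other 4 genes CDAA at week 4 came first, then weeks 8 and 12, and then the control groups, and no neighbouring weeks of CDAA differed by test (smallest adjusted p = 0.0145, for Cdkn1a). The controls followed in the order of weeks 4, 8 and 12 for Mki67, Cdk1 and Cdkn1a, the reverse for Ccnd1, and 12, 4 and 8 for Pcna. The lowest CDAA group was not compared by test with controls of another week. Without the control animal 908, 2 of the 5 genes were called lower in CSAA at week 12 than at week 4 (Cdk1 and Cdkn1a) and 3 than at week 8 (also Mki67). The absence of calls between week 12 and the earlier control weeks thus rests on that animal. It also depends on the method, as limma-voom and RPKM each gave a call from week 8 to week 12.

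Ratios of 2 genes within an animal do not depend on the scaling of its library, but a trend on gene length stays in them. They were compared between the diets with a two-sided exact permutation test over all 12870 splits of 8 against 8 animals, adjusted over 9 tests. Cdkn1a per Mki67 was lower on CDAA at each week. At week 4 the log2 ratio of reads ranged from 1.54 to 3.32 in CSAA and from 1.17 to 1.78 in CDAA, with a difference of means of -0.99 (adjusted exact permutation p = 0.00373). At week 8 it ranged from 1.17 to 3.38 in CSAA and from 0.19 to 0.77 in CDAA, with a difference of -2.21 (adjusted exact permutation p = 0.0014). At week 12 it ranged from 0.45 to 3.35 in CSAA and from 0.25 to 0.95 in CDAA, with a difference of -1.49 (adjusted exact permutation p = 0.00336). The diets were apart at week 8 only, and the CDAA animals spanned a far narrower range than the controls at weeks 8 and 12. The diet effect was thus larger for Mki67 than for Cdkn1a. With the trend on gene length removed, the log2 FC at weeks 4, 8 and 12 was 2.18, 1.99 and 2.18 for Mki67. For Cdkn1a it was 1.29, 0.85 and 1.33, so the 2 effects lay closer together than in reads at each week. With 0.1 added to RPKM values in place of 0.5 added to counts, the ratio missed the threshold of 0.01 at week 4 (-0.70) and week 12 (-1.02).

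Ccnd1 per Pcna was higher on CDAA at each week in reads, without removal of the trend on gene length. With that trend removed, the diet's log2 FC at week 4 was 1.28 for Ccnd1 and 0.62 for Pcna. At week 8 these were 0.79 and 0.80, so the 2 effects were alike there, and at week 12 they were 0.39 and 0.28. The ratios themselves were not tested with the trend removed. The log2 ratio of reads was 2.94 ± 0.43 in CDAA and 2.06 ± 0.38 in CSAA at week 4 (SD, n = 8 each, difference 0.88, adjusted exact permutation p = 0.00336). At week 8 it was 3.13 ± 0.25 and 2.37 ± 0.25 (SD, n = 8 each, difference 0.76, adjusted exact permutation p = 0.0021). At week 12 it was 3.06 ± 0.20 and 2.54 ± 0.44 (SD, n = 8 each, difference 0.53, adjusted exact permutation p = 0.00336). The values of CDAA were thus near each other at the 3 weeks, and the means of CSAA were higher at each later week. Cdk1 per Mki67 was -0.84 ± 0.31 in CDAA and -0.81 ± 0.23 in CSAA at week 4 (SD, n = 8 each, difference -0.03, adjusted exact permutation p = 0.838). The differences were -0.32 at week 8 and -0.36 at week 12, and neither passed the test (adjusted exact permutation p = 0.0748 and 0.0517, n = 8 each). A difference between the 2 mitotic genes in their response was thus not detectable in reads with 8 animals a group. With the trend on gene length removed, the diet's log2 FC at weeks 4, 8 and 12 was 2.18, 1.99 and 2.18 for Mki67. For Cdk1 it was 2.33, 2.55 and 2.56, so the direction of the difference turned with the trend removed, which was not tested.

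**Figure D3:**
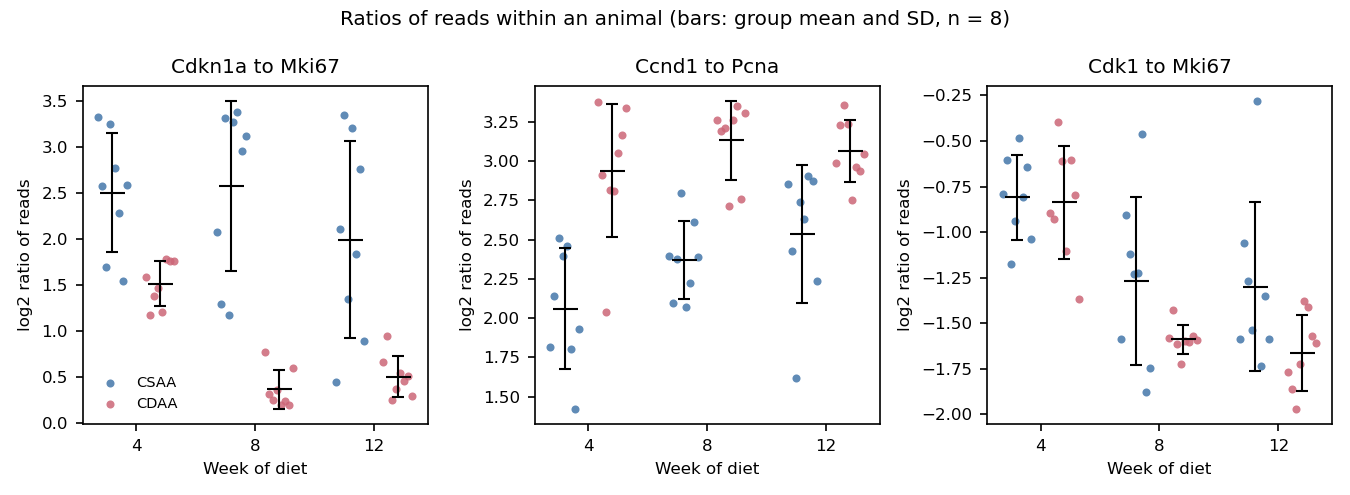
Log2 ratio of reads within an animal (vertical axis) by week of diet for Cdkn1a to Mki67, Ccnd1 to Pcna and Cdk1 to Mki67, with CSAA in blue, CDAA in red, and bars at the mean and SD of 8 animals. At week 8 the Cdkn1a to Mki67 ratios of CDAA (0.19 to 0.77) lie below all those of CSAA (1.17 to 3.38).

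Animals of one group that were high in Mki67 were also high in Cdk1. After the mean of its group was subtracted from each log2 level, Pearson's r between Mki67 and Cdk1 over the 48 animals was 0.87 and Spearman's rho 0.80. Without animals 504 and 908, the farthest from the median in Mki67, r was 0.79, and without the 4 animals that stood apart it was 0.78. It was 0.89 over the 24 CSAA and 0.76 over the 24 CDAA animals. These values are a description, without a test, and the genes share the library and its scaling in each animal. Among the 12755 other genes, Cdk1 was the 4th closest to Mki67 by r over the 48 animals, and Mki67 the 6th closest to Cdk1. These ranks were 15 and 9 over the 24 CSAA animals, but 277 and 52 over the 24 CDAA animals. Without animals 303 and 1102 the ranks in CDAA were 7 and 33. The closest gene to Mki67 was ENSRNOG00000025198 (r = 0.90) and that to Cdk1 was ENSRNOG00000004921 (r = 0.92), for which no names were used here.

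**Figure D4:**
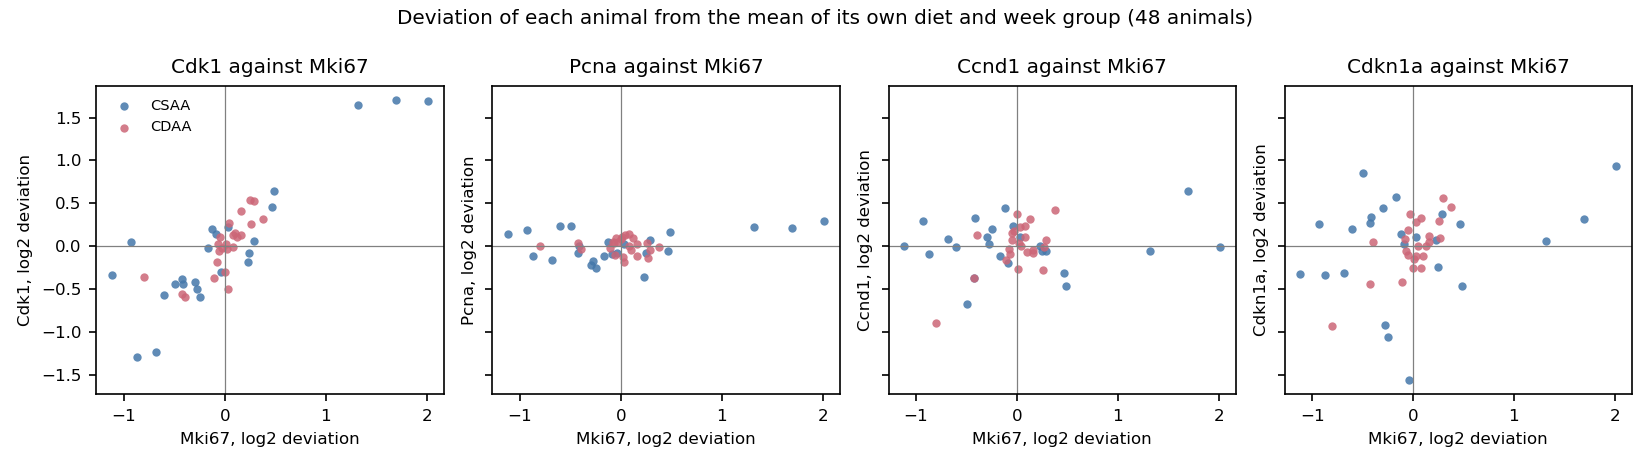
Deviation of each of 48 animals from the mean of its own diet and week group (log2) for Cdk1, Pcna, Ccnd1 and Cdkn1a (vertical axes) against Mki67 (horizontal axes), with CSAA in blue and CDAA in red. Cdk1 follows Mki67 (r = 0.87), and 3 CSAA animals (502, 504 and 908) lie far to the right.

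The other 3 genes followed Mki67 less closely. Over the 48 animals r with Mki67 was 0.32 for Cdkn1a, 0.27 for Pcna and 0.21 for Ccnd1, and without the 4 animals that stood apart it was 0.06, -0.04 and -0.10. Cdk1 and Pcna had an r of 0.49 over the 48 animals and 0.34 without these 4. Within the 24 CDAA animals alone, Cdkn1a and Mki67 had an r of 0.74 (rho 0.58), which was 0.64 without animals 303 and 1102 and 0.46 without animals 303 and 704. Over the 24 CSAA animals r was 0.25, and the difference between the diets was not tested. Ccnd1 and Mki67 had an r of 0.62 in CDAA, but 0.06 without animals 303 and 704, so that relation rests on these animals.

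Mki67 and Cdk1 belonged to a larger group of genes that varied together between animals of a group. An r of at least 0.8 with Mki67 was found for 53 genes and with Cdk1 for 32, and for no gene with Pcna, Ccnd1 or Cdkn1a, over the 48 animals. All 53 and all 32 were called higher on CDAA at each of the 3 weeks, with a median log2 FC at week 12 of 2.83 and 2.35. For comparison, 15.7%, 18.1% and 19.4% of all genes were called higher at weeks 4, 8 and 12. CDAA animal 303 and CSAA animal 504 had TMM factors of 0.83 and 1.01, away from their group means of 1.07 and 0.848 towards the other diet. The 53 and 32 genes were picked by r in these same animals, so their counts are a description and no separate evidence on the diet. Without the 4 animals that stood apart, 1 gene reached an r of 0.8 with Mki67 and 7 with Cdk1, so these numbers rest largely on those animals. The highest r of Pcna, Ccnd1 and Cdkn1a with any gene over the 48 animals was 0.71, 0.77 and 0.69. Over the 24 CDAA animals alone, an r of at least 0.8 was found for 120 genes with Mki67 and 32 with Cdk1. Of the 120, 105, 95 and 101 were called higher on CDAA at weeks 4, 8 and 12, and of the 32, 30, 26 and 30. In the same animals this r was found for 1 gene with Pcna, 27 with Ccnd1 and 36 with Cdkn1a, and the highest r was 0.81, 0.95 and 0.91. Without animals 303 and 1102 the numbers of genes in CDAA were 8 with Mki67, 41 with Cdk1, 1 with Pcna, 1 with Ccnd1 and 8 with Cdkn1a. Over the 24 CSAA animals 131 genes reached 0.8 with Mki67, 97 with Cdk1, 1 with Pcna and none with Ccnd1 or Cdkn1a.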

How the data were processed

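Poly(A) RNA of 48 rat livers (8 per diet and week) was sequenced as 85 bp single-end reads from stranded libraries, the strandedness used for counting not being given in the sources used here. The authors aligned the reads with STAR to Rnor_6.0 and deposited raw counts per Ensembl gene and animal (featureCounts). The authors deposited RPKM values too, which divide counts by gene length and library total. Tables list Ensembl identifiers alone. The 5 genes and all lists were chosen with earlier results of these data known. No table given pairs other identifiers with names (0 of 47357 rows hold an Ensembl identifier), so the lists of cell cycle, p53 and cell type marker genes were not analysed here.

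The quasi-likelihood test of edgeR 4.0.16 (R 4.3.3, TMM) was run on counts of all 48 animals together, with a coefficient for each of the 6 groups, for 12756 genes that reached 1 CPM in 5 or more animals of any group. P values were adjusted by Benjamini-Hochberg, and a call needed an adjusted p below 0.01 and a log2 FC of 1 or more in either direction. P values measure the spread between animals, each labelled as a separate animal. Ratios of reads, with 0.5 added to each count, were compared with exact permutation tests. Correlations used log2 TMM CPM with a prior count of 2. The rule for naming further genes took those closest by correlation, of which only the 2 closest were printed. The labels give no batch. Alternatives were limma-voom (limma 3.58.1), DESeq2 1.42.0, RLE factors, library size alone, no filter on low counts, the 16 animals of a week, leaving out animals, a length trend removed by an offset, limma on log2(RPKM + 0.1), and other additions to ratios. On simulated counts with 200 of 12756 genes changed by a log2 FC of 2 at week 12, edgeR recovered 197 with 0 false calls, limma-voom 196 and DESeq2 198. As many genes were raised as lowered, so the shift of all genes between the diets was not simulated. With a trend on gene length added to the simulated CDAA animals, edgeR recovered 189 with 1173 false calls. With that trend removed it recovered 195 with 1 false call. The strength of the simulated trend was not taken from these data. Sequences were taken from RefSeq (GRCr8).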

Additional observations from a re-analysis of the deposited data

Results flagged for a closer look

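Dixon's criterion for 8 animals was applied to the 30 combinations of gene and group, where chance alone would give about 1.5 animals far from the rest of their group, and 4 were found. Animal 908 of CSAA at week 12 stood above its group in Mki67 (13.1 TMM CPM) and in Cdk1 (4.34 TMM CPM), so these 2 come from 1 liver. Animal 704 of CDAA at week 8 was below its group in Cdk1 (7.22 TMM CPM). Animal 504 of CSAA at week 8 was above its group in Ccnd1 (169 TMM CPM). Control animals 502 and 504, both high in Mki67 at week 8, did not meet the criterion there, since each has the other near it.

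The effect of the diet differed between weeks 4 and 12 by the interaction test for Pcna (log2 difference -0.49, adjusted p = 4.24e-04) and for Ccnd1 (-0.86, adjusted p = 6.88e-04), in edgeR's fit of all 48 animals. Neither reached the fold change threshold, and with library size alone neither had an adjusted p under 0.01.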

How the results depend on the processing

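The calls of Mki67 and Cdk1 at each week, of Ccnd1 at week 4 and of Cdkn1a at weeks 4 and 12 held in every alternative run, and leaving out any 1 animal changed none of the diet effect's calls by both thresholds. With library size alone Cdkn1a at week 8 (1.28) and Ccnd1 at week 12 (1.37) passed both thresholds, as with log2(RPKM + 0.1) (1.31 and 1.39), and with the length trend removed Ccnd1 at week 8 (0.79) did not. The interaction of diet with weeks 4 and 12 turned sign for Cdkn1a with limma-voom (0.0659), library size (0.26), the length trend removed (0.0389) and RPKM (0.48). Within CDAA from week 4 to week 12, Pcna (0.11, 0.10 and 0.11) turned with library size, the length trend removed and RPKM, Ccnd1 (0.17 and 0.24) with library size and RPKM, and Mki67 (-0.51) with the length trend removed. The number of the 5 genes called, 0 as reported, was 1 in CSAA from week 8 to 12 with limma-voom and with RPKM, 1 in CSAA from week 4 to 12 with RPKM and 2 without the 4 animals that stood apart, and 1 in CDAA from week 4 to 12 without them. With RPKM + 0.1 the ratio Cdkn1a to Mki67 missed the threshold at week 4 (-0.70) and week 12 (-1.02), and Cdk1 to Mki67 turned sign at week 4 (0.21) and week 12 (0.0025), where 0.1 is near the lowest Mki67 values (0.116 RPKM) by construction. Over all genes, 2310 and 2476 were called higher and 1546 and 1441 lower at weeks 8 and 12 with TMM, against 4291 and 4864 higher and 546 and 311 lower with library size alone, and at week 4 545 lower against 246. The cause of the other changes was not tested.

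Leaving out 1 animal at a time, Pcna at week 12 ranged from -0.0112 (without animal 906) to 0.12, this interaction from -0.0198 to 0.55 for Cdk1 and from -0.25 to 0.0369 for Cdkn1a, and Mki67 within CDAA from week 4 to week 12 from -0.0103 to 0.13. The number called ranged from 0 to 1 in CDAA from week 4 to 12 (1 without 302, 303, 305 or 1105), from 0 to 3 in CSAA from week 8 to 12 and from 0 to 2 from week 4 to 12 (both highest without 908). The alternatives for lists of pathway genes were not run, since identifiers were not paired with names. No paired analysis was possible because each animal has a number of its own. Depth limits Mki67 and Cdk1 in controls, where single animals had as few as 22 and 8 reads.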
